A study of Sus scrofa with 9 samples.

Results

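Recurrent maternal circRNAs are the circRNAs of the deposited table that were counted in at least 4 of the 6 libraries of MII oocytes and PN embryos and had 0 counts in sperm. The rule found 95 of the 3071 circRNAs in the table, and they came from 78 of the 1727 host genes. The members were selected on these counts, so that their presence in oocytes and embryos and their absence from sperm are given as a description, with no test. The rule treats MII oocytes and PN embryos alike, but a circRNA confined to a single stage can reach at most 3 libraries and is left out. The choice thus bears on the difference between these stages. The name maternal stands for the rule alone, and the origin of the RNA was not tested. In 8 members, the MII oocyte libraries held at most 3 counts in all.

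A circRNA is a closed RNA loop that forms when the end of an exon is joined backwards to an upstream splice site, and it is recognized by reads that cross this back-splice junction. Without free ends, circRNAs are poor substrates for exonucleases, and as a class they are known to outlive linear mRNAs. A fully grown oocyte is transcriptionally silent and depends on stored maternal RNA until the embryonic genome becomes active, which in pigs occurs after the pronuclear stage. Sperm adds a small amount of RNA of its own to the egg.

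Each group comprised 3 strand-specific libraries of total RNA after rRNA depletion, all from pigs and all without treatment. Porcine MII oocytes, arrested at metaphase of the second meiotic division, came from ovaries of postpubertal Long White gilts collected at a slaughterhouse, were matured in vitro, and were stripped of cumulus cells with hyaluronidase. PN embryos were 1-cell embryos with separate pronuclei, made by IVF of such oocytes with washed semen of Landrace boars. Porcine sperm was purified fresh sperm of Large White boars, a different breed from that used for IVF. No genetic alteration is named for any group. Oocytes and embryos were pooled in large numbers for RNA extraction, and it is not stated that the 3 libraries of a group came from separate pools, so that the p-values below measure the spread between libraries, which may be technical.

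Sperm replicates 1 and 3 had the same count for each of the 3071 circRNAs and were counted as 1 sample, which leaves 2 distinct sperm libraries. The circRNA counts summed to between 22809 and 26200 in the 6 oocyte and embryo libraries and to 155731 and 167851 in the sperm libraries. Few sperm circRNAs recurred, since 126 of the 1004 counted in sperm were above 0 in both libraries. A count of 0 in both allows up to 3 counts, or 0.000927% of the sperm circRNA counts, by counting error alone, and with so little recurrence the zeros do not show that a member is absent from sperm. As a check of the cells, 19 of 22 marker genes of cumulus and granulosa cells hosted no circRNA in the table, and the circRNAs of the other 3 (CYP19A1, KITLG and VCAN) summed to between 0 and 8 counts in MII oocytes and to between 0 and 21 in PN embryos. None of them was a member. Of 16 oocyte marker genes, 5 hosted circRNAs (ELAVL2, NLRP13, NLRP5, ZP2 and ZP3), with 0 counts in sperm and between 0 and 209 in an MII oocyte library. Of 15 genes of sperm and spermatids, 5 hosted circRNAs, none a member, with between 5 and 73 counts in MII oocytes and between 6 and 155 in PN embryos.

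Recurrence was uncommon among the circRNAs of these stages. Of 2310 circRNAs counted in MII oocytes or PN embryos, 1635 (70.8%) were above 0 in a single library, and the members made up 4.11%. Of the members, 18 were above 0 in all 6 libraries, 36 in 5 and 41 in 4. In MII oocytes 45 members were above 0 in all 3 libraries, and in PN embryos 44. These include the 18 in all 6, and also 9 members found in all PN embryo libraries and 1 of MII oocytes and 8 found in all MII oocyte libraries and 1 of PN embryos. The remaining 24 members were above 0 in 2 libraries of each stage. None of the members carried the prefix ciRNA, which 46 entries of the table have.

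**Figure D1:**
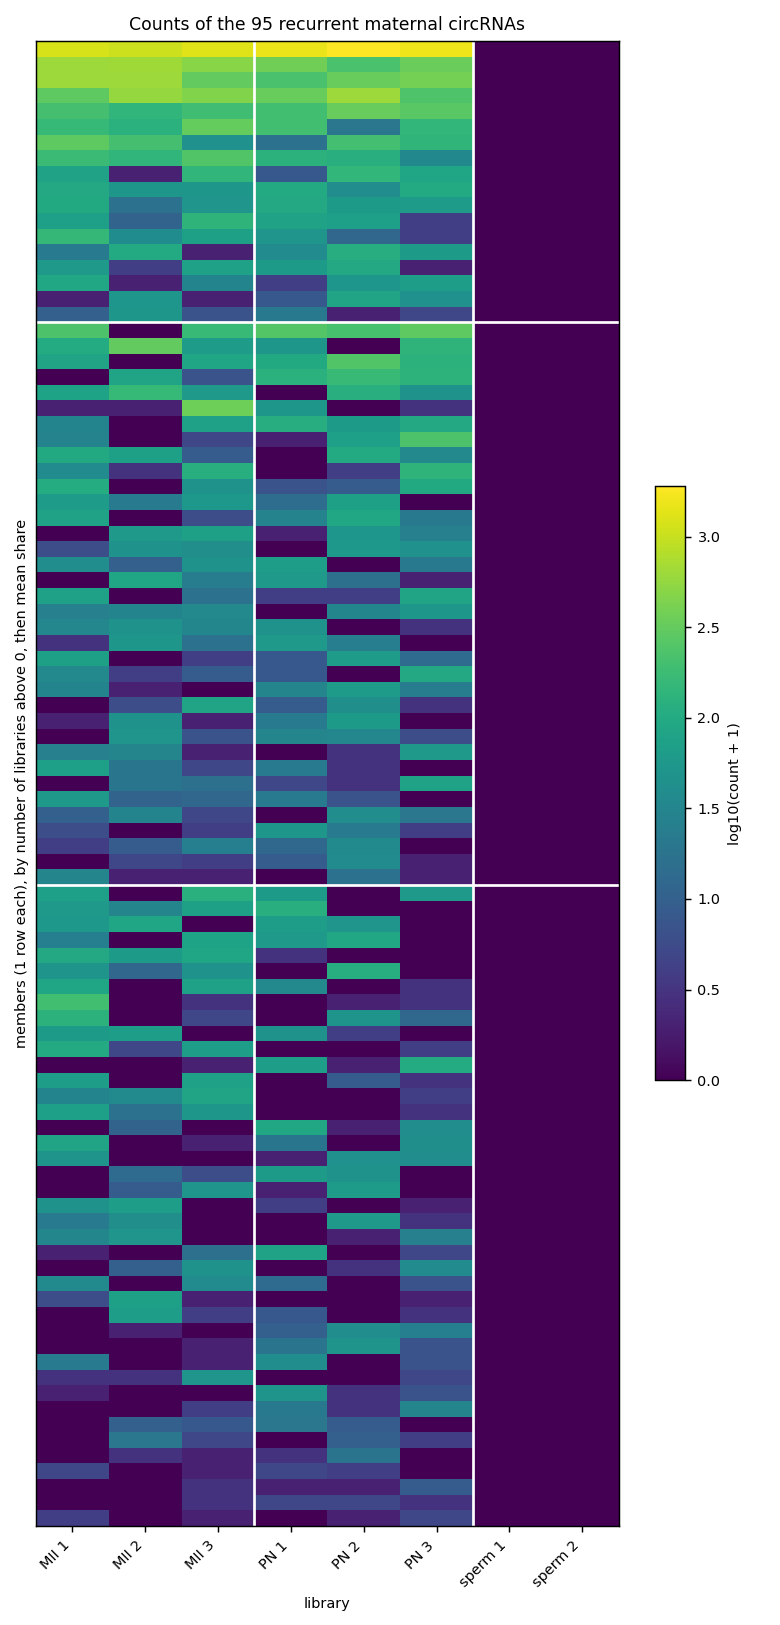
Counts of the 95 members in the 6 MII oocyte and PN embryo libraries and the 2 distinct sperm libraries, on a log10(count + 1) colour scale. Rows are grouped, from the top, by counts above 0 in 6, 5 and 4 of the 6 libraries and ordered by mean share within each group, and the dark cells among bright ones are libraries with few or no counts of a circRNA that another library of the same stage shows in numbers.

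The members were few but held a large share of the circRNA counts. The rule partly sets this, since circRNAs with more counts are more readily detected in several libraries. The counts of the members summed to 7070, 5722 and 6438 in MII oocytes and to 5486, 6787 and 5884 in PN embryos. This was 29.2%, 23.8% and 28.2% of the circRNA counts of the MII oocyte libraries and 23.8%, 25.9% and 24.0% of those of the PN embryo libraries. The libraries of the 2 stages overlapped, with a mean share of 27.1% ± 2.85 for MII oocytes against 24.6% ± 1.16 for PN embryos (SD, n = 3), a difference smaller than the SD of MII oocytes. The overlap of these shares varied with the circRNAs counted, a choice made after the values were seen. Without circRNA453 from UBAP2, described below, the members held 24.2%, 19.4% and 22.4% of the circRNA counts in the MII oocyte libraries and 17.2%, 18.7% and 17.7% in the PN embryo libraries, with every PN embryo library below those of MII oocytes (22.0% ± 2.41 against 17.8% ± 0.748, no test). The separation depends on the denominator, which holds circRNA453 and a further UBAP2 circRNA, circRNA450, that had more counts in PN embryos. In counts the other members overlapped between the stages, with 5853, 4656 and 5109 in MII oocytes against 3964, 4889 and 4331 in PN embryos. With both UBAP2 circRNAs left out of the totals their share was 30.1%, 24.1% and 28.6% against 24.3%, 25.6% and 24.8%, again with overlap. A share is relative to the other circRNAs of its library, and in pooled cells a lower count from fewer cells and from less RNA per cell cannot be told apart. As a share of the circRNAs detected, the members made up 12.1% ± 0.674 and 13.8% ± 0.560.

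This pool was led by very few circRNAs. The member with the most counts, circRNA453 from UBAP2, alone held 18.8% of the member counts of MII oocytes and 27.4% of those of PN embryos, and the leading 5 held 45.8% and 48.5%. The mean count of a member over the 6 libraries ranged from 1.5 to 1431, with a median of 28.7, and 11 members reached a mean of 100 while 12 were under 10. The 18 members above 0 in all 6 libraries held 62.7% of the member counts of MII oocytes and 62.4% of those of PN embryos.

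circRNA453 arises from UBAP2, which encodes a ubiquitin-associated protein and lies on Sscrofa11.1 chromosome 10 at 32755707 to 32897260. It had 1217, 1066 and 1329 counts in MII oocytes and 1522, 1898 and 1553 in PN embryos. Every PN embryo library was above every MII oocyte library, also as a share of the circRNA counts, which was 5.10% ± 0.696 for MII oocytes and 6.73% ± 0.466 for PN embryos. Its log2 fold change in PN embryos was 0.26 (SE 0.28, 95% interval -0.30 to 0.81), with an adjusted p of 0.996 by edgeR's quasi-likelihood test. Scaled to the valid reads of each library in place of TMM, the log2 fold change was 0.49 with an adjusted p of 0.0438, still under the fold threshold of 1. It was the only member whose interval stayed within 1 of 0. Without MII oocyte replicate 3 its log2 fold change was 0.59.

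circRNA415 arises from CENPJ, a protein of centriole assembly (chromosome 11, 289660 to 357920). It had 632, 649 and 502 counts in MII oocytes and 371, 218 and 335 in PN embryos. Here the order was the opposite, with every PN embryo library below every MII oocyte library, and a mean share of 2.51% ± 0.267 against 1.27% ± 0.398. The log2 fold change of -1.13 (SE 0.64, interval -2.38 to 0.12) had an adjusted p of 0.813.

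circRNA159 arises from NBAS, a factor of retrograde transport from the Golgi to the endoplasmic reticulum (chromosome 3, 121882734 to 122242325). It had 626, 629 and 308 counts in MII oocytes and 215, 324 and 391 in PN embryos. MII oocyte replicate 3 fell among the PN embryo libraries, and the log2 fold change was -0.87 (SE 0.67, adjusted p = 0.872, edgeR). It was -0.53 without MII oocyte replicate 2. A further circRNA of NBAS, circRNA160, was also counted in every library, with 154, 123 and 320 counts in MII oocytes and 191, 19 and 148 in PN embryos, and its groups overlapped (log2 fold change -0.998, SE 1.21).

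circRNA206 arises from AHI1, a protein of the ciliary transition zone (chromosome 1, 28566279 to 28760471). Its counts were 287, 570 and 455 in MII oocytes and 329, 622 and 234 in PN embryos, with full overlap of the stages (log2 fold change -0.39, SE 0.67). Its value was 0.053 without MII oocyte replicate 2 and -0.68 without PN embryo replicate 2. circRNA321 arises from COG5, a subunit of the conserved oligomeric Golgi complex (chromosome 9, 106993771 to 107273889). Its counts were 203, 142 and 189 in MII oocytes and 193, 324 and 278 in PN embryos, again with overlap (log2 fold change 0.40, SE 1.01). These 5 circRNAs, from UBAP2, CENPJ, NBAS, AHI1 and COG5, each had at least 50 counts in all 6 libraries, which no other member reached.

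**Figure D2:**
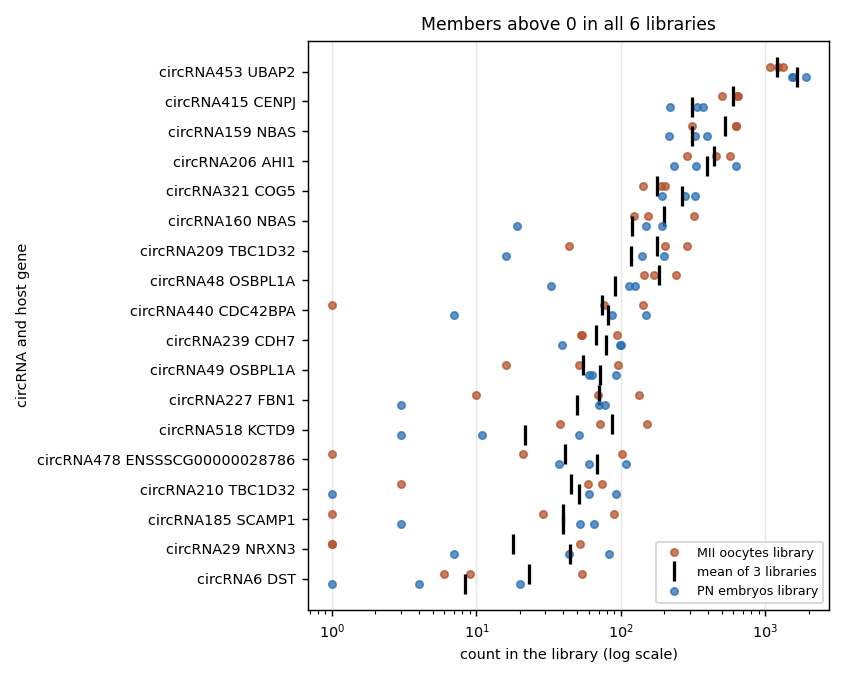
Counts (log scale) of the 18 members above 0 in all 6 libraries, with a point for each of the 3 MII oocyte and 3 PN embryo libraries and a bar at the mean of each stage. The points of circRNA453 lie between 1066 and 1898, while those of circRNA29 from NRXN3 run from 1 to 82.

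Below these, steadiness between libraries was lost quickly, also for members counted in every library. circRNA239 from CDH7, a cadherin of cell adhesion, was among the steadier ones with 94, 53 and 54 counts in MII oocytes and 99, 39 and 100 in PN embryos. circRNA227 from FBN1, the fibrillin of extracellular microfibrils, had 69, 10 and 133, and 77, 70 and 3. circRNA518 from KCTD9, an adaptor of cullin ubiquitin ligases, had 152, 38 and 72, and 51, 11 and 3. For circRNA227 and circRNA518 a library could differ from another of the same stage by an order of magnitude or more. circRNA440 from CDC42BPA, a kinase that acts downstream of CDC42, had 76, 1 and 143 counts in MII oocytes and 7, 149 and 87 in PN embryos. circRNA185 from SCAMP1, a membrane protein of secretory carriers, had 90, 1 and 29, and 3, 52 and 65. circRNA6 from DST, a linker of cytoskeletal filaments, had 9, 54 and 6, and 20, 1 and 4. Also counted in all 6 libraries, circRNA478 from ENSSSCG00000028786, a gene that the gene tables used here give no symbol, had 21, 101 and 1 counts in MII oocytes and 37, 108 and 60 in PN embryos.

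Over all members, the coefficient of variation between the 3 libraries of a stage had a median of 1 for MII oocytes and 1.10 for PN embryos, and it exceeded 1 for 47 and 56 of the 95. Of 59 members that reached 50 counts in some MII oocyte library, 25 (42.4%) had 0 in another MII oocyte library, and of 55 such members in PN embryos, 22 (40%) did. The rule admits zeros in up to 2 libraries and so fixes part of this share. For 6 of the 95 the highest library was less than 3 times the lowest. Rank correlations of counts across the 95 members were 0.180 to 0.487 between MII oocyte libraries, 0.217 to 0.304 between PN embryo libraries and 0.0804 to 0.361 between a library of each stage, so that libraries of different stages were about as alike as libraries of the same stage. Across the 18 members in all 6 libraries the medians were 0.772, 0.615 and 0.707. The points of these correlations share their libraries, and members are not independent replicates. The rule also leaves out circRNAs of a single stage, so that the likeness between stages is partly set by the choice.

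PN embryos were then compared with MII oocytes to ask which members changed on fertilization. In the fit over all 270 circRNAs above 0 in at least 3 of the 6 libraries, edgeR called 0 circRNAs (0%) past the thresholds of 1 for the size of the log2 fold change and 0.05 for the adjusted p, and 16 had an unadjusted p under 0.05. All 95 members were among those tested, 0 were called, and 1 had an unadjusted p under 0.05. DESeq2 called 1 of the 270, which was not a member, and gave an unadjusted p under 0.05 to 36 circRNAs, 11 of them members, while 92 received no adjusted p. The median log2 fold change of the members was -0.21 (quartiles -1.13 and 0.75), against -0.23 (quartiles -1.68 and 1.02) over all circRNAs tested. The 116 circRNAs in 3 libraries with 0 in sperm had quartiles of -3.20 and 1.05, and 11 of them had an unadjusted p under 0.05 by edgeR. The rule admits no circRNA of a single stage, so that the narrower range of the members is partly set by the choice. Of the members, 40 (42.1%) were higher and 55 lower in PN embryos, and 44.4% of all tested were higher. The centre of these values follows the scaling, since the median of all tested moved from -0.23 with TMM to 0.02 when libraries were scaled to their valid reads, and that of the members to -0.0029. Relative to all circRNAs tested, the members lay 0.02 higher with TMM and 0.02 lower with the valid reads.

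The absence of calls does not show that the members were stable. The common dispersion of the fit was 3.80, a large spread between libraries of a stage. The standard error of a member's log2 fold change had a median of 2.74, and the 95% interval included a change of at least 4-fold for 93 of the 95. It was narrower for members in all 6 libraries (median SE 1.82) than for those in 5 (2.71) or 4 (3.06). This grouping is made on the same counts, so that it partly sets the order. The members without overlap of the libraries of the 2 stages, by share of the circRNA counts, numbered 6 higher and 7 lower in PN embryos. Among all 270 tested, 5.19% were higher and 6.67% lower without overlap, so that the members' counts are near this background. Besides the members described below, these included circRNA293 from UVRAG, a protein of autophagy and endosomes, with 29, 35 and 80 counts in MII oocytes and 0, 0 and 3 in PN embryos, and circRNA538 from RYR2, an intracellular calcium channel, with 5, 72 and 1 and then 0, 0 and 1. Both were named after their values were seen. For circRNA538, replicate 3 of each stage held 1 count, and only the difference in their circRNA totals (22809 for MII oocytes, 24503 for PN embryos) sets them apart.

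**Figure D3:**
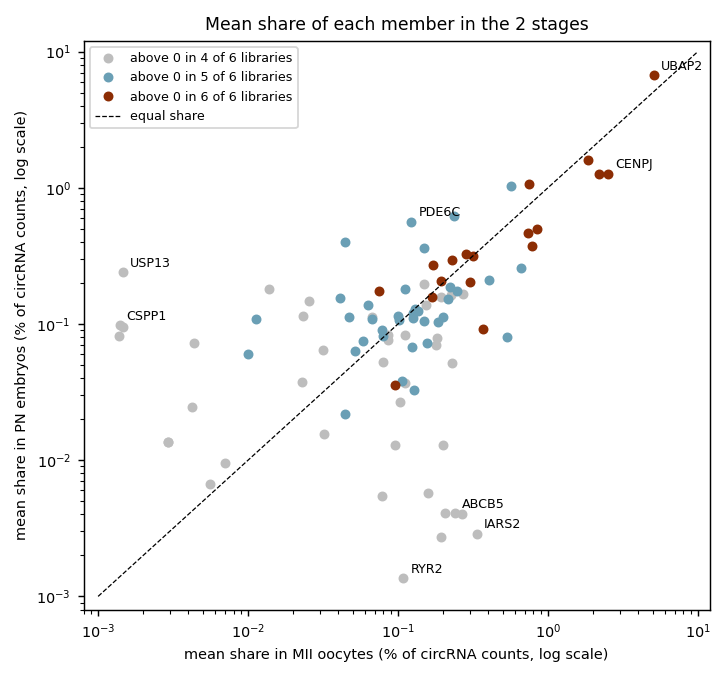
Mean share of the circRNA counts of each of the 95 members in MII oocytes and in PN embryos (log scales, n = 3 libraries each), coloured by the number of libraries above 0, with a dashed line at equal shares. Members in all 6 libraries lie nearest to the line on the whole, with log2 fold changes between -2.23 and 1.12. The points farthest from the line, those of USP13 and IARS2, belong to members counted in 4 libraries. The grouping partly sets this, since only members with zeros can be almost without counts in a stage.

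The smallest p-value of a member belonged to circRNA433 from IARS2, the mitochondrial isoleucyl-tRNA synthetase (chromosome 10, 9685641 to 9739816). It had 93, 61 and 83 counts in MII oocytes and 2, 0 and 0 in PN embryos. The stages did not overlap, and the log2 fold change was -6.90 (SE 3.08, interval -12.9 to -0.86), with an adjusted p of 0.805 by edgeR's quasi-likelihood test. Its summed share was 123-fold higher in MII oocytes, with a counting interval of 33.7 to 1022 that leaves out the spread between libraries. The rule allowed such a pattern only because 1 PN embryo library held 2 counts.

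Among members lower in PN embryos, the next smallest p-values were those of circRNA415 from CENPJ, given above, and circRNAs from KATNAL1, ABCB5 and PIAS2. Their unadjusted p by edgeR was 0.076, 0.084, 0.086 and 0.090, in this order, and none was under 0.05. circRNA308 from ABCB5, a membrane transporter, had 100, 4 and 65 counts in MII oocytes and 0, 0 and 3 in PN embryos, without overlap (log2 fold change -5.68, SE 3.31, adjusted p = 0.813 by edgeR). circRNA421 from KATNAL1, a microtubule-severing enzyme, had 192, 0 and 2, and 0, 1 and 2 (log2 fold change -5.73, SE 3.31). circRNA219 from PIAS2, a SUMO ligase, had 1, 1 and 363, and 54, 0 and 2 (log2 fold change -3.21, SE 1.89). A single MII oocyte library carried the values of KATNAL1 and PIAS2. Without MII oocyte replicate 1 the log2 fold change of circRNA421 was -0.12, and without MII oocyte replicate 3 that of circRNA219 was 4.03.

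In the other direction, circRNAs from USP13, CSPP1, VPS13B and PCNX4 were among those with the smallest p-values. Their unadjusted p by edgeR was 0.058, 0.13, 0.14 and 0.155, in this order. circRNA1316 from USP13, a deubiquitinase, had 0, 0 and 1 counts in MII oocytes and 67, 1 and 104 in PN embryos (log2 fold change 6.75, SE 3.55, adjusted p = 0.813 by edgeR), and PN embryo replicate 2 lay within the range of the oocytes. circRNA677 from CSPP1, a protein of centrosomes and spindle poles, had 0, 1 and 0, and 9, 40 and 25, without overlap (log2 fold change 5.61, SE 3.72). circRNA1116 from VPS13B, a lipid transfer protein of the Golgi, had 0, 0 and 1, and 17, 49 and 6 (log2 fold change 5.42, SE 3.69). circRNA251 from PCNX4 had 28, 0 and 4, and 1, 70 and 228 (log2 fold change 3.30, SE 2.32), with overlap, and its value was 1.65 without PN embryo replicate 3 and 5.46 without MII oocyte replicate 1. None of these had an unadjusted p under 0.05 by edgeR, and none passed the thresholds. In all, 14 members had at most 3 counts over the 3 libraries of 1 stage, 6 with their counts in MII oocytes and 8 with them in PN embryos.

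**Figure D4:**
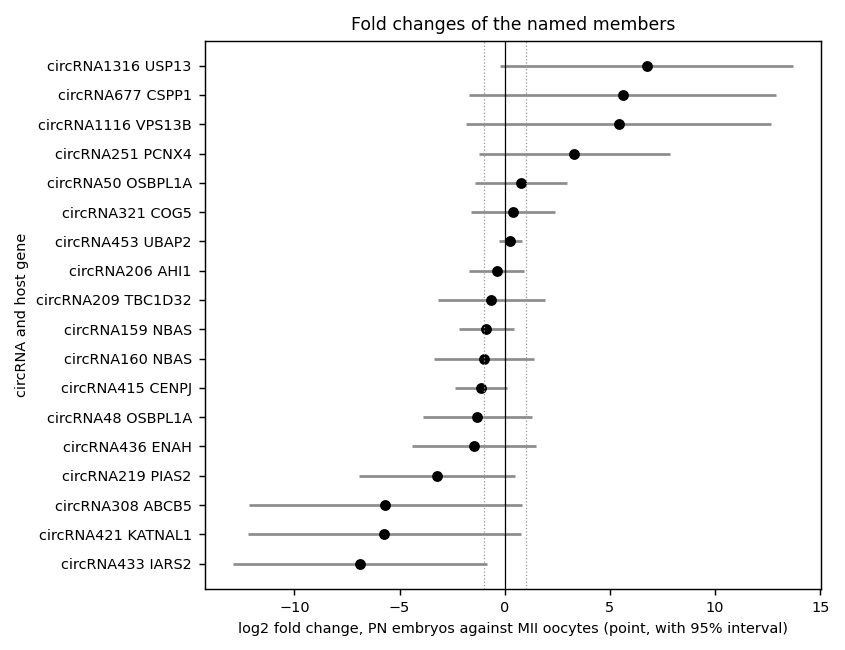
Log2 fold change of PN embryos against MII oocytes, with the 95% interval of the edgeR fit, for 18 members. These are the 10 with the highest mean share and those described for having the smallest p-values in either direction. Only the interval of circRNA453 from UBAP2 lies between the dotted lines at -1 and 1, and only that of circRNA433 from IARS2 does not include 0.

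Of the 78 host genes, 13 gave more than 1 member, 30 members in all. OSBPL1A, an oxysterol-binding protein of late endosomes (chromosome 6, 108997730 to 109241950), gave 3 of its 15 circRNAs. Its circRNA50 had 233, 0 and 167 counts in MII oocytes and 251, 213 and 288 in PN embryos, circRNA48 had 169, 144 and 241 and then 126, 113 and 33, and circRNA49 had 96, 16 and 51 and then 93, 60 and 63. Every PN embryo library of circRNA48 was below those of MII oocytes (log2 fold change -1.30, SE 1.33), while the stages overlapped for the other two. TBC1D32, which is required for the formation of cilia (chromosome 1, 41057782 to 41265416), also gave 3 members. Its circRNA209 had 287, 203 and 44 counts in MII oocytes and 16, 198 and 139 in PN embryos, and circRNA210 had 59, 3 and 74 and then 60, 93 and 1. Its circRNA211 had 81, 0 and 86, and 97, 246 and 126, with every PN embryo library above those of MII oocytes (log2 fold change 1.29, SE 1.58). The 3 circRNAs of TBC1D32 thus took different orders across the same libraries.

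CADPS2, a factor of dense-core vesicle release (chromosome 18, 24372547 to 24867287), gave circRNA582 (56, 30 and 73 in the oocyte libraries, 113, 0 and 0 in the embryo libraries), circRNA585 (55, 84 and 0, and 66, 50 and 0) and circRNA1033 (0, 8 and 51, and 1, 64 and 0). PN embryo replicate 3 counted none of them, and replicate 1 counted all 3. ENSSSCG00000000402, paired with the RNA-binding protein gene RBMS2 in the gene table, gave circRNA70 (74, 0 and 16, and 3, 3 and 82), circRNA69 (31, 50 and 0, and 0, 1 and 26) and circRNA71 (5, 0 and 3, and 53, 22 and 3), which were all the circRNAs of this gene.

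IARS2 gave circRNA433 and also circRNA434, which had 69, 16 and 53 counts in MII oocytes and 0, 0 and 2 in PN embryos. Both of its members were thus counted in every MII oocyte library and in 1 PN embryo library. Another circRNA of the same gene, circRNA1681, showed the reverse, with no counts in the MII oocyte libraries and 21, 74 and 73 in those of PN embryos, and it is no member because it reached 3 libraries. It was singled out after its values were seen. VPS13B gave circRNA1116 and circRNA675 (0, 10 and 0, and 88, 1 and 39), both with most of their counts in PN embryos, out of 14 circRNAs of this gene.

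The remaining pairs were less alike. CDC42BPA gave circRNA440 and circRNA437 (32, 48 and 31, and 48, 0 and 2), and NRXN3, a presynaptic adhesion protein, gave circRNA28 (49, 11 and 48, and 0, 108 and 0) and circRNA29 (1, 52 and 1, and 7, 82 and 44). MGA, a transcription factor that partners MAX, gave circRNA229 (25, 0 and 78, and 57, 90 and 0) and circRNA784 (0, 18 and 15, and 4, 2 and 76). CNNM2, a magnesium transport protein, gave circRNA1000 (0, 83 and 23, and 58, 15 and 1) and circRNA999 (0, 2 and 1, and 2, 17 and 0). Within each of these pairs, the library with the most counts differed between the members in at least 1 stage. ELAVL2, an RNA-binding protein known from oocytes and neurons and the only member host on the oocyte marker list, gave circRNA256 (71, 0 and 3, and 7, 62 and 13) and circRNA255 (36, 0 and 37, and 13, 0 and 6). UBAP2 gave circRNA453 and circRNA452 (80, 0 and 1, and 18, 0 and 42), and NBAS the pair described above.

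**Figure D5:**
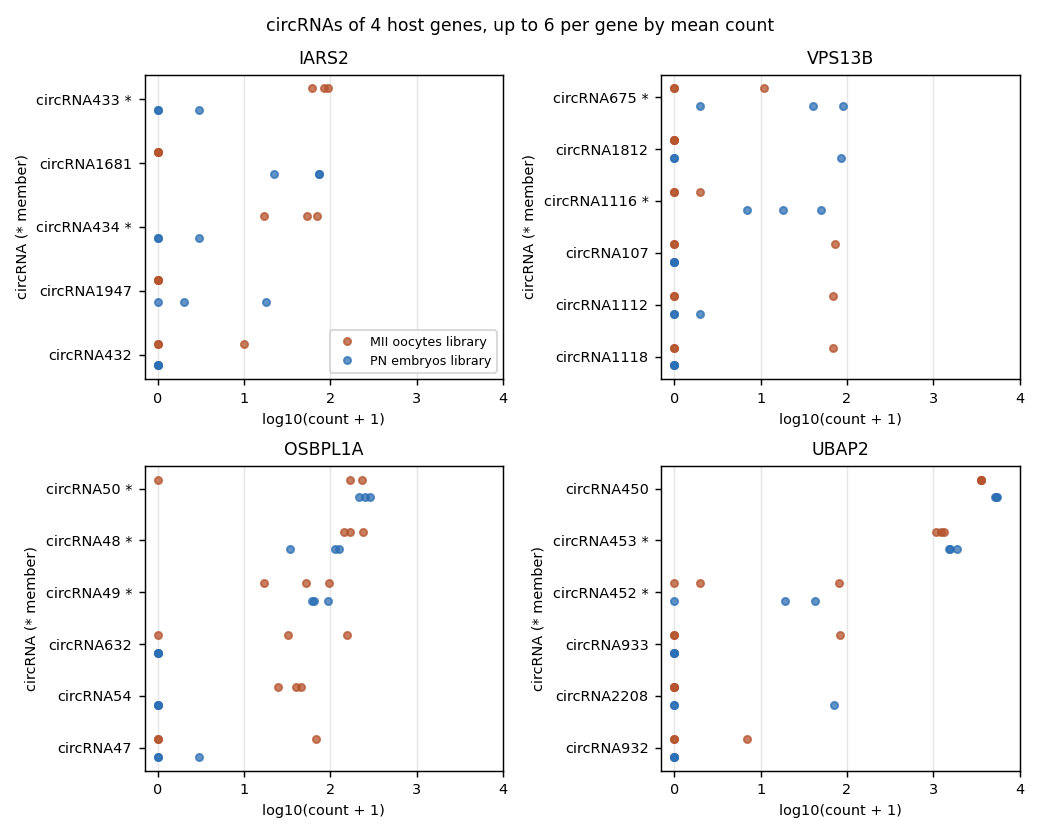
Counts, as log10(count + 1), of up to 6 circRNAs of IARS2, VPS13B, OSBPL1A and UBAP2 in each MII oocyte and PN embryo library, with an asterisk for members. In IARS2 the 2 members lie at the right in MII oocytes and at the left in PN embryos, while circRNA1681 is reversed, and in UBAP2 circRNA450 and circRNA453 are tight in both stages.

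The host genes of the members had more circRNAs than others. They hosted 378 circRNAs with a median of 3 per gene, against a median of 1 for the other 1649 host genes, and members are more readily found in genes with several circRNAs. For 15 host genes the member was the only circRNA, and in the median host gene the members held 78.1% of the circRNA counts of oocytes and embryos. In RefSeq's Sscrofa11.1 annotation, 71 of the 78 host genes could be placed by symbol. Their span from start to end had a median of 144.2 kb (quartiles 91.8 and 261.4 kb), against 100.3 kb (quartiles 55.4 and 181.8 kb) for 1443 other host genes. NRXN3 was the longest with 1647 kb. These are descriptions of host genes, with no test.

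The rule sets each member at 0 in sperm, but not its host gene. Of the 78 host genes, 22 (28.2%) gave a different circRNA that was counted in sperm, close to the 349 of 1211 (28.8%) among other host genes with a circRNA in oocytes or embryos. circRNA2874 of COG5 had 0 and 884 counts in the sperm libraries and 0 in every oocyte and embryo library, and circRNA3004 of B3GALNT2, which encodes a glycosyltransferase, had 0 and 1684. The same genes also gave circRNAs shared by sperm and the other stages, with 92 and 0 counts in sperm for circRNA316 of COG5 (39, 40 and 47 in oocytes, 21, 19 and 18 in embryos) and 609 and 0 for circRNA540 of B3GALNT2 (59, 153 and 192, and 129, 168 and 136). Of the 33 circRNAs of member host genes counted in sperm, 15 were also counted in oocytes or embryos.

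The host genes were grouped by 12 lists of gene functions, on which 53 of the 95 members fell, and in none of the lists was a member called by edgeR. Beside each list's median stands that of all its circRNAs tested, and the median over all 270 was -0.23.

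Membrane trafficking and GTPase regulators had the most, with 21 members from 13 of the 103 listed genes that hosted circRNAs, 7 higher and 14 lower in PN embryos. Their median log2 fold change was -0.31, against -0.22 for the 54 tested. This was also the longest list, with 176 genes. Of its 54 circRNAs tested 21 were members, against 95 of all 270 tested. Members of this list were led by circRNA159 from NBAS, circRNA321 from COG5 and circRNA50 from OSBPL1A.

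Kinases, phosphatases and signalling receptors had 8 members, 3 higher and 5 lower (median -0.49, against -0.17 for 22 tested). After circRNA440 from CDC42BPA, the highest were circRNA242 from ALPK2, an alpha-kinase (70, 0 and 120 in oocytes, 60, 0 and 59 in embryos), and circRNA524 from NEK1, a kinase of cilia and the DNA damage response (87, 0 and 74, and 34, 0 and 2). Replicate 2 of both stages was at 0 for these members. The list also held circRNA357 from BMPR1B, a receptor of bone morphogenetic proteins that acts in the ovary, with 1, 0 and 15, and 76, 0 and 4.

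Genes of the cell cycle, spindle and centrosome had 6 members, 4 higher and 2 lower (median 0.32, against 0.86 for 14 tested). circRNA524 from NEK1 was on this list too, with circRNA528 from CIT, the citron kinase of cytokinesis (128, 0 and 4, and 0, 49 and 12), and circRNA270 from MELK, a mitotic kinase (9, 29 and 4, and 0, 39 and 19). circRNA1228 from TRIM37, a ubiquitin ligase that limits centriole duplication, had 0, 0 and 3, and 20, 2 and 30. The list does not hold CENPJ and KATNAL1, whose members circRNA415 and circRNA421 had log2 fold changes of -1.13 and -5.73, and AHI1 and CENPJ stand on none of the lists.

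The ubiquitin and SUMO system had 5 members, 4 higher and 1 lower (median 0.26, against -0.32 for 15 tested). The list does not hold PIAS2 and KCTD9, whose members circRNA219 and circRNA518 had log2 fold changes of -3.21 and -2.23, so that its count leaves out members of related function that were lower in PN embryos. The highest were circRNA453 from UBAP2, circRNA1316 from USP13 and circRNA452 from UBAP2, followed by circRNA124 from RNF216, a ubiquitin ligase, with 3, 8 and 25, and 12, 36 and 0. RNA binding, processing and decay had 6 members, 2 higher and 4 lower (median -0.67, against -0.02 for 16 tested). The list does not hold ENSSSCG00000000402, whose members circRNA70, circRNA69 and circRNA71 had log2 fold changes of 0.06, -1.55 and 3.00. circRNA420 from PAN3, a subunit of a deadenylase that shortens poly(A) tails, had 26, 29 and 34 counts in MII oocytes and 0, 31 and 53 in PN embryos, and was at 0 in 1 library only. circRNA256 from ELAVL2 followed, and circRNA141 from PNPT1, a mitochondrial exoribonuclease, had 48, 67 and 0, and 3, 0 and 1.

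Chromatin regulators had 4 members (3 higher, 1 lower, median 0.52, against 0.25 for 17 tested), the pair of MGA and circRNA867 from SATB1, an organizer of chromatin loops, which had 0, 9 and 46, and 0, 2 and 37, and circRNA427 from PHF11 (22, 0 and 1, and 39, 0 and 6). Transcription factors had 3 members (2 higher, 1 lower, median 0.15, against -0.92 for 14 tested), the pair of MGA and circRNA505 from CARF (30, 1 and 1, and 0, 16 and 1). Meiosis and germ cell genes had the 2 members of ELAVL2, 1 in each direction (median -0.99, against -0.98 for 8 tested).

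Each of the other lists had 2 members or none. From the list of cilium and sperm structure came circRNA401 from CFAP44 (64, 22 and 55, and 14, 73 and 0) and circRNA504 from DNAH7 (1, 46 and 1, and 21, 61 and 0), both of proteins of the motile axoneme, with a median of -0.20 against 0.08 for 7 tested. The list holds neither AHI1 nor TBC1D32. The log2 fold change was -0.39 for circRNA206 from AHI1, and -0.65, -0.10 and 1.29 for circRNA209, circRNA210 and circRNA211 from TBC1D32. Extracellular matrix and adhesion gave circRNA227 from FBN1 and circRNA169 from ADAM17, a sheddase of membrane proteins, with 3, 0 and 1, and 0, 1 and 4, the lowest counts of any member (median -0.26, against 0.85 for 6 tested). Metabolism gave circRNA957 from NNT, a mitochondrial transhydrogenase (0, 5 and 80, and 8, 42 and 2), and circRNA607 from ETFA, an electron transfer flavoprotein (0, 13 and 5, and 61, 47 and 0), with a median of 0.55 against -0.39 for 8 tested. DNA repair and replication had 0 members, although 33 of its genes hosted 73 circRNAs, 12 of them tested, with a median of 0.17.

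Among members outside the lists, circRNA436 from ENAH, a regulator of actin filaments, was among the 10 highest by mean share and had 102, 306 and 64 counts in MII oocytes and 53, 0 and 133 in PN embryos (log2 fold change -1.45, SE 1.5). Its value was -0.32 without MII oocyte replicate 2 and -2.91 without PN embryo replicate 3. circRNA996 from PDE6C, the phosphodiesterase of cone photoreceptors, was singled out after its values were seen. It had 0, 82 and 6 counts in MII oocytes and 122, 163 and 132 in PN embryos, where it was even between libraries (139 ± 21.4, SD, n = 3). Its stages did not overlap, and its log2 fold change was 2.02 (SE 1.83, adjusted p = 0.938 by edgeR).

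At the edge of the rule, the members with the highest mean share among those in 4 libraries were circRNA242 from ALPK2 and circRNA582 and circRNA585 from CADPS2, with means of 51.5, 45.3 and 42.5 counts. Just outside were 116 circRNAs in 3 of the 6 libraries with 0 in sperm, and the highest of them, those from FANCL and ENSSSCG00000008451, had more counts on average than any of these members. circRNA710 from FANCL, a ubiquitin ligase of DNA crosslink repair, had 0, 211 and 317 counts in MII oocytes and 369, 0 and 0 in PN embryos. circRNA714 from ENSSSCG00000008451 had 0, 82 and 184, and 0, 0 and 127. circRNA83 from ERC1, a scaffold of secretion sites, had 80, 97 and 130 and then 0 in each PN embryo library, and it is the circRNA that DESeq2 called.

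A further 42 circRNAs met the rule in oocytes and embryos but were also counted in sperm. They include circRNA450 from UBAP2, with 3537, 3592 and 3602 counts in oocytes, 5244, 5197 and 5513 in embryos, and 0 and 4 in sperm, so that 4 counts in 1 sperm library kept it out. Its mean share of 18.4% of the circRNA counts was higher than that of any member. circRNA461 from ZMYND11, a reader of histone methylation, was left out by 2 sperm counts (153, 116 and 172, and 205, 88 and 124), while circRNA221 from SMAD4, a mediator of TGF-beta signalling, had 722 and 113 in sperm. Median counts were alike, at 28.7 for the members and 29 for these 42, and their median log2 fold change was -0.04. They held 21.9% ± 1.28 of the circRNA counts of MII oocytes and 28.9% ± 2.34 of those of PN embryos, and circRNA450 was the larger part of both.

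The linear transcripts of the host genes could be followed only in part. The lncRNA table, whose values are coverage (mean read depth along a transcript), lists 377 transcripts that carry the name of 59 of the 78 host genes. They are assembled pieces named for a gene and are not its mRNA, and the depth in reads behind a value is unknown. Of these, 157 from 36 host genes could be tested with limma on log2(coverage + 1), and 0 were called, while over all 19810 transcripts 12 (0.0606%) were. At an unadjusted p under 0.05 there were 11 (7.01%), 4 higher and 7 lower in PN embryos, against 7.43% of all. Their median difference was 0.01, against -0.22 over all transcripts tested.

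The smallest of these p-values belonged to a transcript named for TBC1D32, with a coverage of 720.8, 978.5 and 807.2 in MII oocytes and 1667, 1224 and 1426 in PN embryos. All PN embryo libraries were above those of MII oocytes, with a difference of 0.78 on the log2(coverage + 1) scale and an adjusted p of 0.199 by limma, and it was at 0.83, 0 and 0 in sperm. Transcripts named for NBAS summed to a coverage of 282.1, 186.3 and 328.4 in MII oocytes and 329.4, 215.8 and 244.3 in PN embryos, where the stages overlapped, and to at most 0.53 in sperm. For COG5 the coverage was 592.2, 0.26 and 1216 in sperm and 0 in every MII oocyte library, whereas its member circRNA321 was counted in every oocyte and embryo library and in no sperm library. UBAP2 is not named in this table.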

How the data were processed

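The authors deposited whole-number counts per circRNA with the host gene of each, without normalization, and for lncRNAs the coverage signal of each transcript. The submitters' processing notes name cutadapt 1.9, TopHat2 2.0.4, HISAT2 2.0.4, StringTie 1.3.4d, edgeR and the build Sscrofa11.1, without their roles, and the circRNA caller is not given in the sources used here. A junction that a caller misses in 1 library is listed as 0, so zeros do not show absence. The mRNA table was not used, because none of its identifiers could be paired with a host gene, and the planned comparison of host mRNA was therefore not run. No column of the circRNA and lncRNA tables was left out, except that the identical sperm columns were counted once.

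The members and gene lists were chosen with earlier results of these data known. Counts of circRNAs above 0 in at least 3 of the 6 MII oocyte and PN embryo libraries were tested with edgeR 4.0.16 (glmQLFit and glmQLFTest, TMM, Benjamini-Hochberg adjustment over all tested) in R 4.3.3, with no block and with sperm outside the fit. Standard errors and 95% intervals were derived from the quasi-likelihood F statistic. DESeq2 1.42.0 was an alternative, with other scalings, filters and each replicate left out. Coverage was tested with limma 3.58.1 on log2(coverage + 1) where coverage reached 1 in at least 3 libraries, a comparison added after the tables were seen. The scripts were tested on simulated data. The simulated counts had smaller dispersions than the common dispersion of 3.80 of these data, so that they do not test the fit at this spread. Counting intervals are exact (Clopper-Pearson), and these and the floor of 3 counts cover counting error only. Descriptions used Python 3.11.15 and pandas 2.3.3, and gene positions are those of RefSeq for Sscrofa11.1, matched by symbol.

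The circRNAs named were those in all 6 libraries, the 10 with the highest mean share, the 5 with the smallest p in each direction, the leading 3 of each list, all from host genes with 2 or more members, and the leading 3 on each side of the rule's limits. Others were named after their values were seen, and 1 circRNA that this rule names is not reported here. Sequences of the circRNAs are not analysed here.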

Additional observations from a re-analysis of the deposited data

How the results depend on the processing

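The number of members depends on the rule. It was 211 with at least 3 of the 6 libraries, 54 with at least 5, and 63 when a library had to hold 3 counts. With 1 library left out and 3 of the remaining 5 required, it was between 133 and 161. Without the condition on sperm it was 137. DESeq2 called 1 circRNA between PN embryos and MII oocytes in place of 0, and the other 11 alternatives called 0, among them the replicate block. Same-numbered libraries deviated together no more than others. Their correlations were -0.0759, 0.12 and -0.0405, and those of the other pairs lay between -0.0952 and 0.14. Values this small do not settle whether the libraries were paired. With the replicate block 0 circRNAs were called and 3 had an unadjusted p under 0.05, and the median log2 fold change of the members was -0.35. Over all alternatives this median lay between -0.36 and 0.10, against an SD of 0.41 between PN embryo libraries, and leaving out MII oocyte replicate 3 gave the highest value. That of all circRNAs tested was -1.27 without the filter and -0.49 with the block. Between 5 and 18 members changed the sign of their fold change under an alternative. Of the 18 members plotted with their intervals, 2 did so, both on leaving out 1 library. circRNA206 from AHI1 ranged from -0.68 to 0.053 and circRNA219 from PIAS2 from -6.80 to 4.03. Leaving out 1 library also moved circRNA415 between -1.32 and -0.75, circRNA159 between -1.21 and -0.53, circRNA48 between -1.63 and -0.81, circRNA453 between 0.19 and 0.59, circRNA321 between 0.25 and 0.70, circRNA50 between 0.36 and 1.45, circRNA160 between -1.32 and -0.10, circRNA209 between -1.08 and -0.21, and circRNA308 between -8.90 and -4.94, with no call. As a share of the counts of circRNAs above 0 in at least 3 libraries, the members held 46.6% in MII oocytes and 40.3% in PN embryos, and without circRNA453 their share of all circRNA counts was 22.0% and 17.8%. Transcripts named for host genes had 0 calls under every alternative, which were chosen after seeing the data. The spread between libraries of a stage limits what can be seen, with a common dispersion of 3.80, and 84 of the 95 members also have a mean count under 100.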
